A study of Homo sapiens with 4 samples.

Results

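The peaks on the long arm of chromosome 1 were taken from 4 deposited lists of chromatin immunoprecipitation sequencing (ChIP-seq) peaks, for Fra-1 and DDX5 in BT549 cells, each called over input DNA and over IgG. A peak belonged to the arm when it lay on chromosome 1 and started at 142.6 Mb or beyond in hg19. Peaks that touched 149.75 to 149.865 Mb or 228.74 to 228.79 Mb were left out. These stretches hold replication-dependent histone genes and the 5S ribosomal RNA repeats. This gave 2869 peaks of 57601 in the 4 lists. They were 1538 of 30571 Fra-1 peaks over input, 793 of 16133 Fra-1 peaks over IgG, 538 of 10836 DDX5 peaks over input and 0 of 61 DDX5 peaks over IgG. They were set against the 3621 peaks of chromosome 1 that ended before 121.5 Mb, on the short arm.

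BT549 is a human breast cancer cell line without oestrogen receptor alpha, and per the labels the cells received no treatment. Each of Fra-1 ChIP, DDX5 ChIP, a control ChIP (normal rabbit IgG) and input DNA is represented by 1 library, all from this line. The study asked which sites bind Fra-1 alone, DDX5 alone or both proteins. There are no replicates, so no test between antibodies was made. The 95% intervals given here cover counting error only, and neighbouring peaks are not independent.

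Fra-1 is a Fos-family protein that pairs with Jun proteins to form AP-1, which binds a short DNA motif, mostly at enhancers far from promoters. DDX5 is an RNA helicase of the DEAD-box family that works in RNA processing and acts as a coactivator of several transcription factors. The long arm of chromosome 1 is among the chromosome arms most often gained in breast cancer. It carries a large block of heterochromatin beside the centromere, then a gene-rich part, and it holds tandem arrays of genes for small structural RNAs. Input DNA varies with copy number and with recovery and alignment, so the control level at peaks is of interest on such an arm.

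Each peak carries the authors' pileup, the depth of ChIP fragments at its summit, and the authors' fold enrichment over the control. The control level was obtained from these values as (pileup + 1) / fold − 1, in fragments at the depth of the list concerned. It cannot fall below a background value for each list, 3.02 in the Fra-1 list over input, 2.67 in the Fra-1 list over IgG and 2.68 in the DDX5 list over input. The sources used here give no total read depths. Positions in hg19 serve as names of peaks, since genes were not assigned to them here.

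At the border nearest the centromere, the first Fra-1 peak over input on the long arm, at 142814782 to 142814994, had a pileup of 21 at 2.91-fold, with an input level of 6.56. The nearest peak outside the arm window, at 142538156 to 142538385, had a pileup of 109 at 1.81-fold, with an input level of 59.8. Between 121.5 and 142.6 Mb the lists held 1 Fra-1 and 3 DDX5 peaks over input. The histone stretch held 12 Fra-1 and 15 DDX5 peaks over input and both DDX5 peaks over IgG of the region, which had folds of 3.41 and 3.70 at a median IgG level of 20.5. The 5S stretch held 35 Fra-1 and 41 DDX5 peaks over input, at median input levels of 18.0 and 15.4, and no peak over IgG.

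The long arm held fewer DDX5 peaks per Mb than the short arm, while the density of Fra-1 peaks over IgG was about the same on both. As a share of each whole list, the long arm held nearly the same part of all 3, with 4.96% of the DDX5 list over input, 5.03% of the Fra-1 list over input and 4.92% of the Fra-1 list over IgG. The short arm held 7.88%, 6.29% and 5.21% of these lists, so it was the short arm's share that varied. The lists gave 5.05 DDX5 peaks over input per Mb on the long arm (4.63 to 5.50) and 7.03 on the short arm (6.57 to 7.52), a ratio of 0.719 (0.644 to 0.802). Fra-1 peaks over input numbered 14.4 per Mb on the long arm (13.7 to 15.2) and 15.8 on the short arm (15.1 to 16.6), a ratio of 0.913 (0.853 to 0.976). Fra-1 peaks over IgG numbered 7.45 per Mb on the long arm (6.94 to 7.98) and 6.92 on the short arm (6.46 to 7.41), and the interval of their ratio, 1.08 (0.975 to 1.19), includes equal densities. With only peaks at or above the median −log10 q of the list, the ratio for Fra-1 over input was 0.997, so the lower Fra-1 density over input was not seen among the higher-ranked peaks. With the left-out stretches kept, the ratio was 0.939 (0.878 to 1.004) for Fra-1 over input and 0.792 (0.712 to 0.881) for DDX5 over input. The Fra-1 interval also included equal densities without groups of 5 or more peaks (0.874 to 1.01). It did not with the arm started 10 Mb further along (0.829 to 0.954). No DDX5 peak over IgG lay on the long arm, which allows up to 0.0282 per Mb (3 counts over the arm), against 3 on the short arm.

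**Figure D1:**
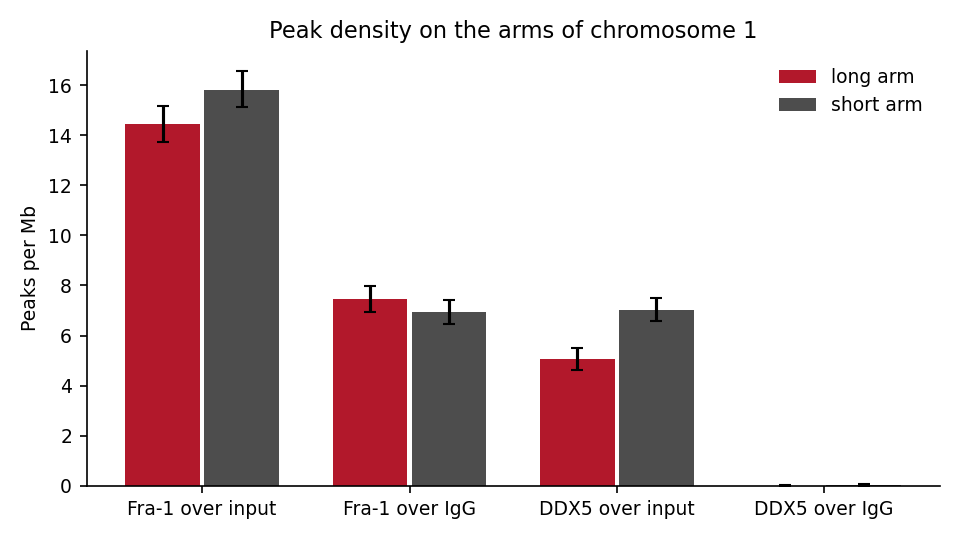
Peaks per Mb in each of the 4 lists on the long arm (red) and the short arm (grey) of chromosome 1, with exact 95% Poisson intervals. The DDX5 peaks over input differ most between the arms, at 5.05 on the long arm and 7.03 on the short arm, and the Fra-1 peaks over IgG lie at 7.45 and 6.92.

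Peaks of the long arm resembled those of the short arm in strength and width. The median fold of Fra-1 over input was 5.14 on the long arm (interquartile range 3.90 to 8.28) and 4.79 on the short arm (3.69 to 7.96). Their median widths were 320.5 bp on the long arm and 327 bp on the short arm. On the long arm 398 Fra-1 peaks over input (25.9%, 23.7% to 28.1%) reached 8-fold. The share was 24.9% on the short arm and 29.5% on all chromosomes. Fra-1 peaks over IgG had median folds of 6.66 on the long arm and 6.52 on the short arm. Of these, 284 long-arm peaks (35.8%) reached 8-fold, against 35.4% on the short arm and 38.8% on all chromosomes. For DDX5 over input the median fold was 4.08 on the long arm and 4.02 on the short arm, and 8 of 538 long-arm peaks (1.49%) reached 8-fold, against 1.99% on the short arm and 2.28% on all chromosomes.

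The arms differed in which part of the fold range their peaks filled. When all Fra-1 peaks over input were ranked by fold and cut into 10 equal groups, the long arm held 5.69% (4.90% to 6.57%) of the lowest group and 4.38% (3.68% to 5.17%) of the highest. The short arm held 9.29% (8.28% to 10.4%) of the lowest and 5.36% (4.59% to 6.22%) of the highest. In the lowest group the intervals of the arms did not overlap, and in the highest they did. The long arm's share of the DDX5 list over input lay between 3.97% and 6.37% in the 10 groups, and the short arm's between 6.09% and 10.3%. The short arm was thus richer in weak Fra-1 peaks relative to strong ones than the long arm.

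The input level on the long arm was slightly below that on the short arm and above that of most chromosomes. At Fra-1 peaks over input its median was 4.84 on the long arm (3.91 to 6.58) and 5.19 on the short arm (4.26 to 6.78), against 4.45 on all chromosomes. Among the long arm, the short arm, chromosomes 2 to 22 and X, only chromosomes 8 (6.78), 20 (6.0), 9 (5.42) and the short arm had a higher median, and chromosomes 3, 5 and 10 had the same. Chromosome 2 had the lowest, 3.10. At DDX5 peaks over input the median input level was 4.29 on the long arm and 4.46 on the short arm, against 3.83 on all chromosomes. The IgG library, which is separate from input, gave the same order, with a median of 6.0 on the long arm, 7.0 on the short arm and 5.20 on all chromosomes at Fra-1 peaks over IgG. The control level is read only where a peak was called, so it is not a copy number.

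A stretch of 13 Mb within the long arm had clearly lower control levels than the rest. It ran from 210 to 223 Mb and was marked out after its values were seen, so the levels are a description. At its 151 Fra-1 peaks over input the median input level was 3.48 (3.02 to 4.84), against 4.84 (4.12 to 5.81) in the 13 Mb before it and 5.03 (4.07 to 6.78) in the 13 Mb after it. Of these 151 peaks, 60 (39.7%, 31.9% to 48.0%) stood at or within 5% of the lowest level the list allows, against 4.47% before and 3.38% after the stretch. Over the whole arm, 7.28% did, and on the short arm 3.02%.

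The IgG library showed the same stretch. At its 117 Fra-1 peaks over IgG the median IgG level was 4.0 (3.0 to 5.0), against 7.0 both before (5.0 to 8.60) and after it (5.55 to 10.0). The DDX5 list over input, which shares its input library with the Fra-1 list, had a median input level of 2.75 at 16 peaks there, against 4.29 on both sides. The short arm had no bin of 5 Mb as low. In bins of 5 Mb with at least 20 peaks, the median input level at Fra-1 peaks ranged from 3.29 to 6.12 on the long arm (21 bins) and from 4.65 to 5.81 on the short arm (23 bins). The lowest bin on the long arm was 217.6 to 222.6 Mb, and the highest was 142.6 to 147.6 Mb, the bin nearest the centromere.

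**Figure D2:**
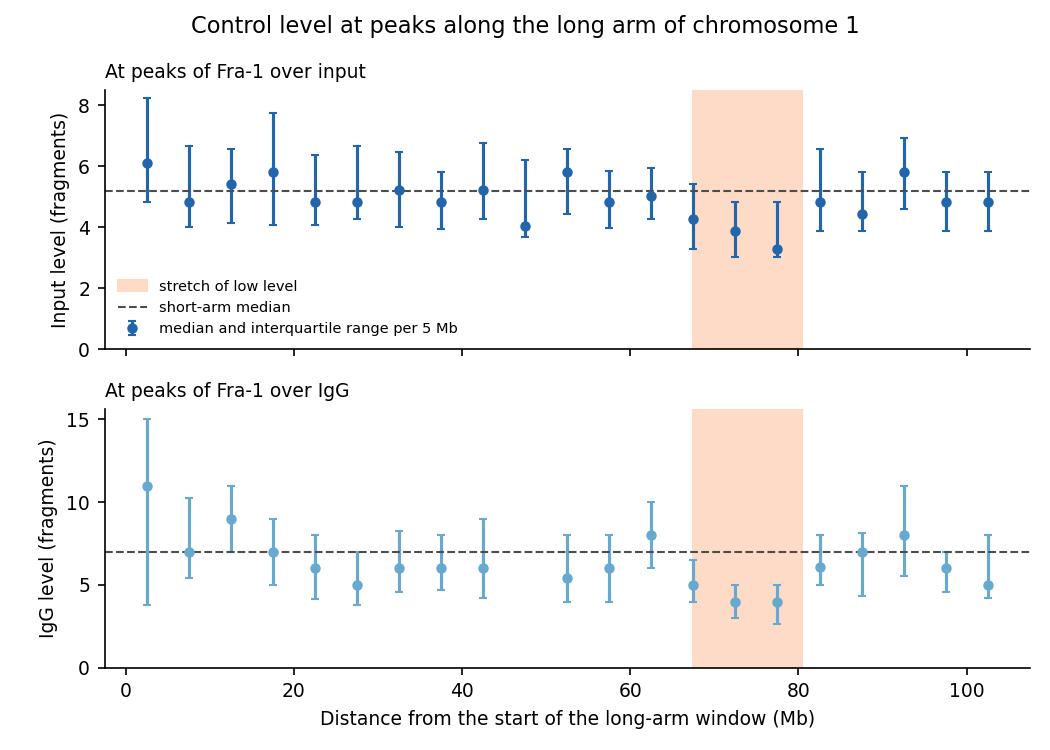
Input level at Fra-1 peaks over input (top) and IgG level at Fra-1 peaks over IgG (bottom) along the long arm, in fragments, as the median and interquartile range of each 5 Mb bin with at least 20 peaks. The shaded stretch has median levels of 3.48 (input) and 4.0 (IgG), under the short-arm medians of 5.19 and 7.0 (dashed lines).

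The direction of the Fra-1 pileup in this stretch depended on which peaks were taken. Over all Fra-1 peaks over input, the median pileup was 35 in the stretch, against 32.5 before it and 31 after it, and the median fold was 6.96, against 5.41 and 5.13. The stretch held 11.6 of these peaks per Mb (9.84 to 13.6), against 18.9 (16.6 to 21.4) and 18.3 (16 to 20.8). Among Fra-1 peaks called with both controls, the pileup was lower in the stretch. Its median in the list over input was 43.5 at 112 peaks in the stretch, against 58.5 at 128 peaks before it and 59.5 at 122 peaks after it. These sets were not cut alike, since a call over IgG depends on the IgG level, which was lower in the stretch. The call kept 74.2% of the Fra-1 peaks over input there, against 52.0% before and 51.5% after. The part of this in the lower pileup was not tested. The median input level at the peaks called with both controls was 3.87 in the stretch, against 5.33 and 5.72. At these peaks the stretch thus stood at 0.726 and 0.677 times its flanks in input level, at 0.571 of either flank in IgG level, and at 0.744 and 0.731 times in Fra-1 pileup. The median fold over input was 8.98 in the stretch, against 8.90 and 8.11, and the median fold over IgG was 7.95, against 6.64 and 6.57. Over all Fra-1 peaks over IgG, the median pileup was 38.02 in the stretch, against 47.75 before it and 50.4 after it. At DDX5 peaks over input it was 16, against 22 on both sides. Both control libraries were thus lower over the same stretch. The Fra-1 pileup was lower at peaks called with both controls and in the list over IgG, but not over all Fra-1 peaks over input. The list over IgG is not a separate observation here, since it holds the same Fra-1 library in steps of 0.884 fragments. Its peaks are also nearly the same, with 117 in the stretch beside the 112 called with both controls. Its median pileup was 38.02 over the former and 38.465 over the latter. Copy number, recovery and alignability cannot be told apart from these lists, and a level at the lower limit may stand for a still lower one.

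The make-up of the lists differed in the stretch. The list over IgG kept 112 of the 151 Fra-1 peaks over input (74.2%, 66.4% to 80.9%), against 52.0% (45.6% to 58.4%) before it and 51.5% (44.9% to 58.0%) after it. Of Fra-1 peaks of at least 8-fold over input, 100% of 63 were kept in the stretch and 95.8% in the rest of the arm, near the ceiling in both. Such peaks made up 41.7% of the peaks over input in the stretch, against 29.7% before it, 26.2% after it and 24.2% in the rest of the arm. The part of this difference in the share kept was not tested. Only 9 of the 151 (5.96%, 2.76% to 11%) overlapped a DDX5 peak, against 15% (10.8% to 20.1%) before and 26.2% (20.7% to 32.2%) after. DDX5 peaks over input numbered 1.23 per Mb (0.703 to 2.0), against 4.62 (3.52 to 5.94) before and 7.18 (5.80 to 8.80) after. Fra-1 peaks over IgG numbered 9.0 per Mb (7.44 to 10.8), against 10.4 (8.71 to 12.3) and 10.2 (8.53 to 12.1), with overlapping intervals. The part of the lower control level and pileup in these counts was not tested.

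DDX5 peaks gathered at 147.6 to 157.6 Mb, with 56 and then 124 peaks per bin of 5 Mb. The bin nearest the centromere, 142.6 to 147.6 Mb, held 28 (5.20%). The 15 Mb from 142.6 to 157.6 Mb held 208 of the 538 DDX5 peaks over input (38.7%), 335 of the 1538 Fra-1 peaks over input (21.8%) and 87 of the 793 Fra-1 peaks over IgG (11%). The fullest bin for both lists over input was 152.6 to 157.6 Mb, with 124 DDX5 and 157 Fra-1 peaks. It held 33 Fra-1 peaks over IgG. There 19.1% of Fra-1 peaks over input were called again over IgG and 39.5% overlapped a DDX5 peak. The fullest bin for Fra-1 over IgG lay toward the far end of the arm, at 232.6 to 237.6 Mb, with 72 peaks, beside 104 Fra-1 and 30 DDX5 peaks over input.

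The emptiest of the 21 whole bins was the same for DDX5 over input and Fra-1 over IgG, and for Fra-1 over input it was the neighbouring bin. The whole bin with fewest DDX5 peaks, 1, was 187.6 to 192.6 Mb, which held 25 Fra-1 peaks over input and had the fewest Fra-1 peaks over IgG, 19. Among whole bins, the fewest Fra-1 peaks over input, 23, were at 192.6 to 197.6 Mb, where 21 Fra-1 peaks over IgG and 5 DDX5 peaks were listed. From 212.6 to 222.6 Mb there were 7 DDX5 peaks, beside 107 Fra-1 peaks over input and 87 over IgG. Over the 21 whole bins, counts of Fra-1 and DDX5 peaks over input were correlated (Spearman's rho 0.77, Pearson's r 0.82), and these lists share the input library. Counts of DDX5 peaks over input and Fra-1 peaks over IgG were not (0.19 and 0.01). These are descriptions over neighbouring bins of single libraries.

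**Figure D3:**
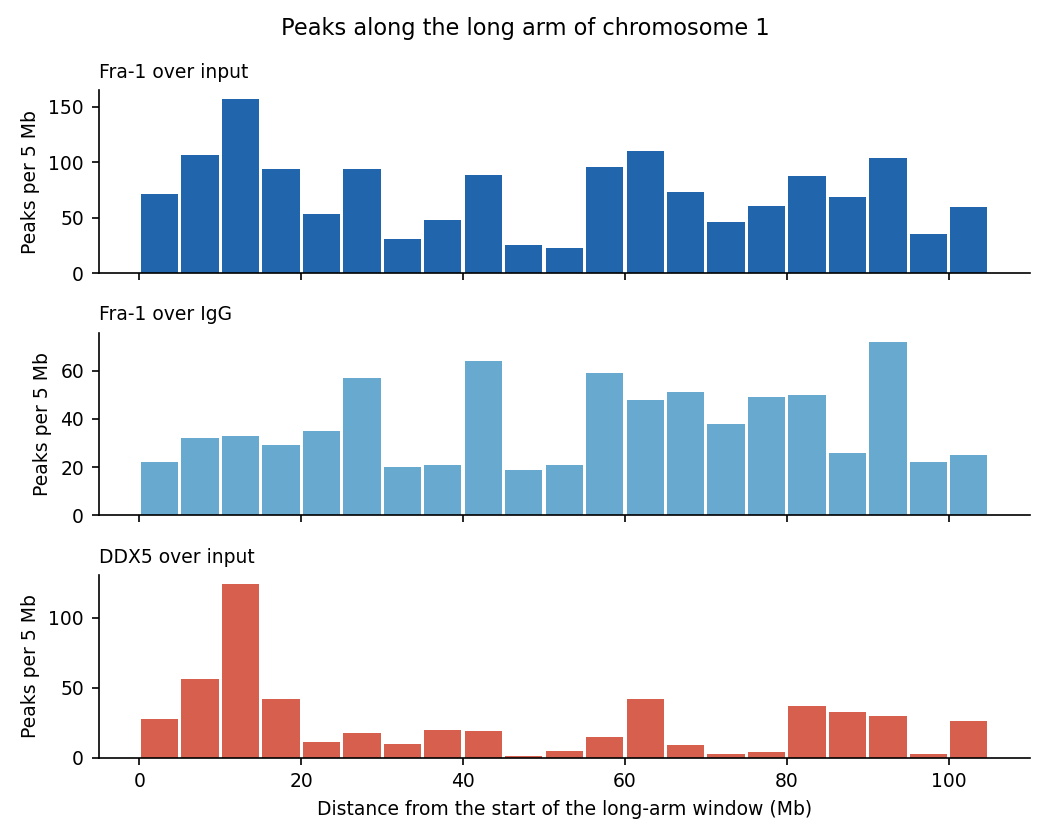
Number of peaks per 5 Mb bin along the long arm in the 3 lists that hold peaks there, by distance from the start of the arm window. DDX5 peaks over input are most frequent in the bin 10 to 15 Mb from the start (124), whereas Fra-1 peaks over IgG are most frequent 90 to 95 Mb from it (72).

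Fra-1 peaks of the long arm were called with both controls more often than those of the short arm and overlapped DDX5 less often. Of the 1538 Fra-1 peaks over input, 740 (48.1%, 45.6% to 50.6%) had a counterpart in the Fra-1 list over IgG, against 41.2% (39.0% to 43.5%) on the short arm and 50.5% on all chromosomes. Without the stretch of low control level the long-arm share was 45.3% (42.6% to 47.9%), and its interval overlapped that of the short arm. A DDX5 peak over input lay at 334 Fra-1 peaks of the long arm (21.7%, 19.7% to 23.9%), against 28.7% (26.7% to 30.8%) on the short arm and 21.8% on all chromosomes. Without the stretch this share was 23.4% (21.2% to 25.8%), still below the interval of the short arm. Both long-arm shares were nearer to those of all chromosomes than the short-arm shares were.

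At sites of higher input level the share with DDX5 was lower on the long arm than on the short arm, and it was the short arm that lay above all chromosomes there. Fra-1 peaks over input were cut into 5 groups by input level, with limits taken over all chromosomes. In the group of highest input level, 22.7% (18.7% to 27.0%) of 406 long-arm peaks overlapped DDX5, against 33.7% (29.8% to 37.7%) of 567 short-arm peaks. In the group below it the shares were 27.8% (23.1% to 32.9%) on the long arm and 36.6% (32.3% to 41.1%) on the short arm. In the lower 3 groups the intervals overlapped, and the shares from lowest to highest level were 9.15%, 16% and 23.4% on the long arm and 8.43%, 12.4% and 26.5% on the short arm. On all chromosomes the shares in the 5 groups were 17.2%, 18.8%, 22.4%, 24.5% and 26.6%. In the upper 2 groups the interval of the long arm included the share of all chromosomes and that of the short arm lay above it. In the lowest group the intervals of both arms lay below it. The share called again over IgG was higher on the long arm than on the short arm in each of the 5 groups, and below that of all chromosomes in each. From lowest to highest level it was 39.4%, 35.7%, 48.8%, 47.3% and 58.4% on the long arm, against 46.2%, 45.7%, 49.6%, 53.3% and 58.7% on all chromosomes. In the lowest group it was 39.4% (31.3% to 48.0%) on the long arm and 20.5% (12.4% to 30.8%) on the short arm, and in the third 48.8% (43.9% to 53.7%) and 36.5% (32.5% to 40.6%). In the other 3 groups the intervals of the arms overlapped.

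**Figure D4:**
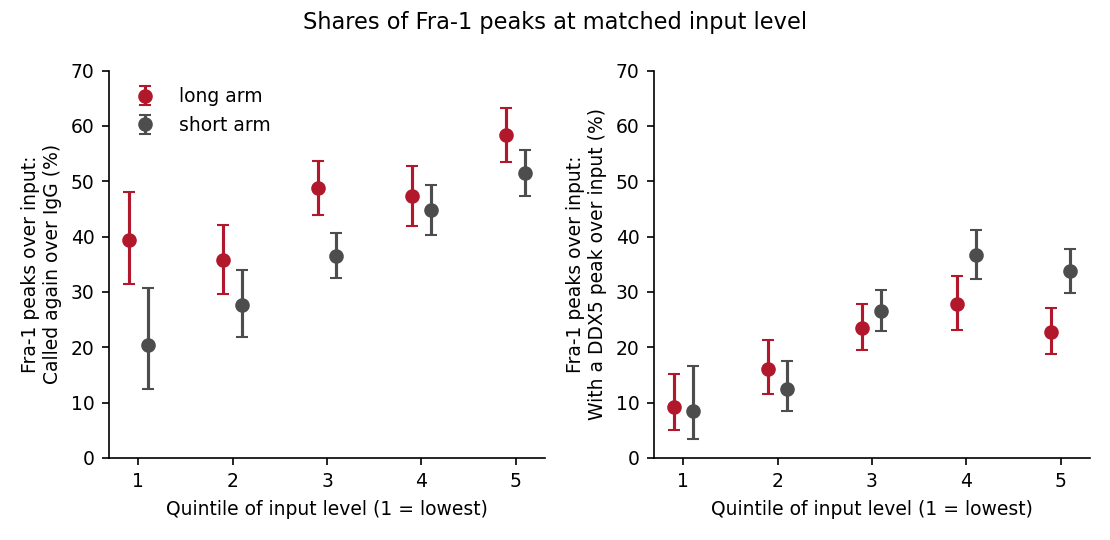
Share of the Fra-1 peaks over input also listed over IgG (left) and that overlapped a DDX5 peak over input (right), in 5 groups of input level, for the long arm (red) and the short arm (grey), with exact 95% binomial intervals. In the group of highest input level, DDX5 overlap is 22.7% on the long arm and 33.7% on the short arm.

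From the side of DDX5 the arms were alike. A Fra-1 peak over input lay at 345 of the 538 DDX5 peaks on the long arm (64.1%, 59.9% to 68.2%), against 63.2% on the short arm and 61.8% on all chromosomes. The summits of these pairs were a median of 70 bp apart on the long arm and 69 bp on the short arm, with the nearest summit taken. DDX5 peaks with a Fra-1 peak had a median width of 320 bp and an input level of 4.65, against 245 bp and 3.78 for the 193 without. With Fra-1 over IgG in place of Fra-1 over input, 69 of 538 DDX5 peaks (12.8%) overlapped on the long arm, against 11.9% on the short arm and 13.2% on all chromosomes. Of the 793 Fra-1 peaks over IgG on the long arm, 69 (8.70%) overlapped DDX5 over input, against 11.7% on the short arm and 8.68% on all chromosomes. A Fra-1 peak over input lay at 762 of them (96.1%), against 97.5% on the short arm and 97.7% on all chromosomes. No long-arm DDX5 peak over input overlapped a DDX5 peak over IgG, which allows a share of up to 0.683% (exact upper limit), against 0.351% on the short arm and 0.508% on all chromosomes.

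The long-arm Fra-1 peaks fell into 4 classes by IgG calling and DDX5. The largest was called again over IgG and had no DDX5 peak, with 673 peaks and a median fold of 7.89 over input. The smallest was called again and had a DDX5 peak, with 67 peaks, a median fold of 12.8, a median pileup of 84 and a median width of 707 bp. The 267 peaks with DDX5 that were not called again had a median fold of 4.52, and the 531 with neither had 3.85. DDX5 overlapped 9.05% (7.09% to 11.4%) of the long-arm Fra-1 peaks that were called again and 33.5% (30.2% to 36.9%) of those that were not. On the short arm these shares were 13.2% and 39.6%, and on all chromosomes 9.38% and 34.4%, close to those of the long arm.

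The strongest Fra-1 peaks of the arm stood far above both controls. The highest by −log10 q over input was at 153538917 to 153539403, with a pileup of 225 and 36.3-fold over input. Over IgG it had a pileup of 199 and 16.7-fold. A DDX5 peak over input overlapped it, with a pileup of 25 and 4.62-fold, so the same site had far fewer DDX5 than Fra-1 fragments in lists whose depths may differ. The next was at 170677146 to 170677797, with a pileup of 208, at 41.6-fold over input and 30.8-fold over IgG, and it led the list over IgG. The third, at 211209789 to 211211143, lay in the stretch of low control level, with a pileup of 187 at an input level of 3.19. It reached 44.8-fold over input, the highest fold of the arm in that list, and 27.7-fold over IgG. These were followed by peaks at 223894840 to 223895760 (29.3-fold over input) and 172902923 to 172903787 (31.1-fold).

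The list over IgG added 2 sites to the leading Fra-1 peaks, at 186156719 to 186157743 (17.6-fold over IgG) and 198850359 to 198850717 (23.4-fold over IgG). The 5 leading Fra-1 peaks without DDX5 were those at 170677146, 211209789 and 172902923, and those at 186156724 to 186157748 (25.6-fold over input) and 235871723 to 235872297 (34.2-fold over input). Each of these also had a peak in the list over IgG, with 15.6-fold to 30.8-fold. Of all long-arm Fra-1 peaks of at least 8-fold over input, 96.5% did, so 5 of 5 is near that background.

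The leading common sites, chosen by their ranks in both lists, paired a strong Fra-1 peak with a DDX5 peak of lower fold. The DDX5 folds at these 5 sites were above the long-arm median of 4.08, and of 4.30 for DDX5 peaks with Fra-1. A choice by DDX5 rank favours such folds. The first was a Fra-1 peak at 183246977 to 183249480, which at 2504 bp was the widest of the arm. It had 26.4-fold over input, a pileup of 204 and 7.26-fold over IgG at an IgG level of 24.0. Its DDX5 peak had 4.97-fold over input and a pileup of 33. The others were at 203527199 to 203527987 (Fra-1 31.1-fold and DDX5 5.29-fold over input), 159894199 to 159894649 (18.3-fold and 4.71-fold), 145092088 to 145092951 (11.6-fold and 4.69-fold) and 156083826 to 156084763 (19.9-fold and 4.97-fold). All 5 Fra-1 peaks were also called over IgG, at 5.17-fold to 12.9-fold, where the IgG level was 10.0 to 24.0, above the long-arm median of 6.0. The share called over IgG was 96.5% among all long-arm Fra-1 peaks of at least 8-fold over input.

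The strongest DDX5 peaks were at other places. The 3 highest by −log10 q lay within the 7 Mb nearest the centromere, at 149223587 to 149224280, 147510736 to 147511257 and 145969121 to 145969524. The first had a pileup of 93 and 9.81-fold over input, the second 68 and 14.4-fold, and the third 73 and 12.0-fold. Each overlapped a Fra-1 peak over input, of 8.92-fold at the first, 9.25-fold at the second and 8.37-fold at the third. Each of the 8 DDX5 peaks of at least 8-fold on the arm lay at a Fra-1 peak over input of 6.46-fold to 9.62-fold. All 17 such DDX5 peaks of the short arm had a Fra-1 peak over input as well. The share with a Fra-1 peak over input was 64.1% over all long-arm DDX5 peaks. It was 80.8% over those at or above the median −log10 q of the list. The interval of 8 of 8, 63.1% to 100%, includes both shares. None of the 8 overlapped a Fra-1 peak over IgG, where the share was 12.8% over all long-arm DDX5 peaks, so a count of 0 among 8 is near that background. The DDX5 peaks without Fra-1 were weaker. The 5 highest of them had 3.38-fold to 5.98-fold over input, and the leading one, at 156186234 to 156186598, had a pileup of 75 at an input level of 21.5.

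The fullest group of peaks on the arm was the same for both antibodies and showed a regular spacing. With peaks at most 12500 bp apart joined, 18 Fra-1 and 15 DDX5 peaks over input lay in 31.4 kb at 161409783 to 161441160. Of these, 17 Fra-1 and all 15 DDX5 peaks overlapped the other antibody, and neither list over IgG had a peak there. The 4 widest Fra-1 peaks of the group, 882 to 1652 bp, had summits at 161416996, 161424390, 161431787 and 161439228, which are 7394, 7397 and 7441 bp apart. The 4 widest DDX5 peaks, 895 to 1519 bp, had summits at 161416996, 161424441, 161431777 and 161439184, which are 7445, 7336 and 7407 bp apart. In both lists the next widest peak of the group was well below these, at 566 bp for Fra-1 and 614 bp for DDX5.

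The spacing also stood out over all summits of the group in the Fra-1 list. Of the 153 pairs of Fra-1 summits in the group, 12 were 7.4 kb apart within 150 bp, the highest number for any distance from 2 to 15 kb, where the median was 1. For DDX5, 4 of 105 pairs were at 7.4 kb and 7 at 14.8 kb, the highest number. The 4 widest peaks had pileups of 73, 110, 87 and 110 in the Fra-1 list and 87, 90, 80 and 99 in the DDX5 list, in order of position. The 2 antibodies thus had nearly equal pileups here, unlike at the leading Fra-1 sites, which were ranked by their Fra-1 signal. This was not particular to the group. At the 3 leading DDX5 peaks the pileups were 93, 68 and 73 for DDX5 and 77, 53 and 56 for Fra-1. Over the arm, the median was 30 at Fra-1 peaks with DDX5 and 24 at DDX5 peaks with Fra-1. The input level was high as well, at a median of 11.6 at the Fra-1 and 10.3 at the DDX5 peaks, and 17 of the 18 Fra-1 peaks were above the 95th percentile of the arm, 8.71. Folds over input were 2.78 to 8.54 for Fra-1 and 3.02 to 7.68 for DDX5. Reads from sequence present in several copies may align to any copy, and the part of copy number in these folds was not tested.

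**Figure D5:**
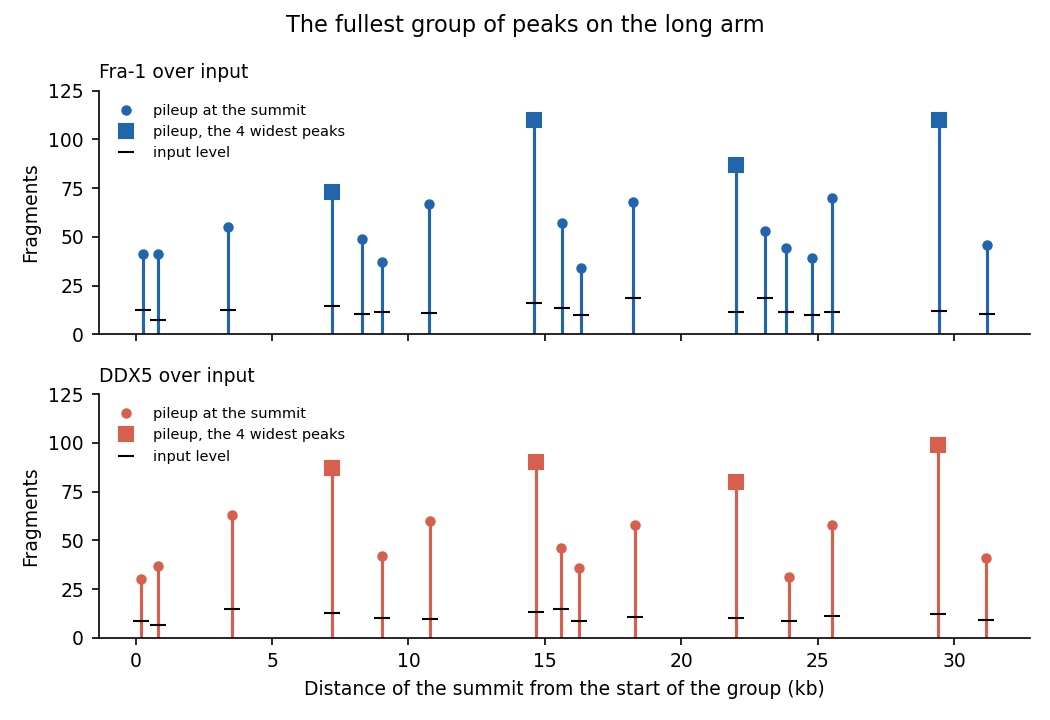
Pileup at the summit of each Fra-1 (top) and DDX5 (bottom) peak over input in the fullest group of the long arm, by distance from the start of the group, in fragments, with the input level as short black lines. The 4 widest peaks of each list (squares) lie 7.3 to 7.5 kb apart and have pileups of 73 to 110 (Fra-1) and 80 to 99 (DDX5).

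Groups of 5 or more peaks numbered 33 for Fra-1 over input, 10 for Fra-1 over IgG and 13 for DDX5 over input. They held 15.8% of the long-arm Fra-1 peaks over input, 8.45% of those over IgG and 19.0% of the DDX5 peaks. The next Fra-1 groups over input had 12 peaks at 153918533 to 153963424, with a median fold of 4.02 and 7 peaks that overlapped DDX5, and 11 peaks each at 223888642 to 223914807 and 234630925 to 234680230. In the group at 223888642 the median fold was 10.2, with 2 peaks that overlapped DDX5. The same place held the fullest group over IgG, 10 peaks with 3.71-fold to 14.2-fold over IgG. It was followed by 8 peaks at 151945472 to 151967788 (median 9.05-fold over IgG), 8 at 156083865 to 156100357 (7.62-fold) and 8 at 235093149 to 235133428 (5.10-fold). The stretch of low control level held 117 of the 793 Fra-1 peaks over IgG on the arm and 1 of the 10 groups, near that share. This group had 5 peaks at 214731469 to 214755528. Its strongest peak had 33.3-fold over IgG, the highest fold over IgG on the arm, at a median IgG level in the group of 2.67, the lowest the list allows.

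The next DDX5 groups lay in the fullest bin and at 205 Mb. They had 13 peaks at 155158482 to 155178920, with a median fold of 3.84, of which 5 overlapped Fra-1 over input, and 10 peaks at 205263696 to 205290998, with a median of 4.10-fold, of which 6 did. No peak of the first overlapped Fra-1 over IgG, and 3 of the second did.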

How the data were processed

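There is 1 library each for the Fra-1, DDX5 and IgG immunoprecipitations and for input DNA. The submitters' processing notes name CASAVA 1.8, Bowtie 0.12.9, HOMER and hg19, with no role for any of them. The peak caller is not given in the sources used here. Per the file headers, the deposited signal is the pileup at a summit. It is in whole fragments in the lists over input and in steps of 0.884 (Fra-1) and 0.998 (DDX5) in those over IgG, to within 0.02 for 100% of the pileups under 60. The authors' fold is a ratio of ChIP to control signal, per the file headers. The −log10 p and −log10 q values are deposited in 2 columns whose headers are spreadsheet errors, and the second was taken as −log10 q.

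Control levels were computed from pileup and fold. Overlap meant at least 1 bp. Densities have exact Poisson intervals and shares exact binomial (Clopper-Pearson) ones, at 95%. The long arm was taken to end at the last peak, 249240596, and its left-out stretches were taken off its length, which left 106.5 Mb against 121.5 Mb for the short arm. A bin needed 20 peaks for a median. Overlap code and intervals were tested on simulated data. Peaks were named by rule: the 5 highest by −log10 q per list, the 5 leading common, Fra-1-only and DDX5-only sites, the 3 fullest groups per list (ties included) and the fullest and emptiest bins. The DDX5 peaks of at least 8-fold, the stretch from 210 to 223 Mb, the spacing within the fullest group and the group at 214731469 were singled out after their values were seen. The members and lists were chosen with earlier results of these data known. Gene lists were not analysed here, since no hg19 annotation or sequence was used. Values were computed with pandas 2.3.3 and numpy 2.4.6 in Python 3.11.15, intervals with scipy 1.17.1, and plots with matplotlib 3.10.9.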

Additional observations from a re-analysis of the deposited data

How the results depend on the processing

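Across 86 alternative settings, 58 values kept inside the 95% interval of the main value and 28 left it. The density ratio of the arms became 0.997 (Fra-1 over input, peaks above the median −log10 q) and 0.537 (DDX5 at 8-fold, which rests on 8 and 17 peaks). The ratio of median input levels at Fra-1 peaks, 0.933, became 0.833 at 8-fold and 0.893 above the median −log10 q. At DDX5 peaks, 0.962, it became 0.805 at 8-fold. The ratio of IgG levels, 0.857, became 0.875 above the median −log10 q, 0.916 over 1 Mb bins and 0.910 without the stretch of low level. It stayed below 1 each time. The interval of this ratio, 0.8571 to 0.8572, is narrow because many IgG levels tie near whole fragments. It also leaves out the error of the short-arm median, so a small move leaves the interval. Of long-arm Fra-1 peaks, 48.1% were called again over IgG, which became 96.5% at 8-fold, 81.9% above the median −log10 q, 45.3% without the stretch, 44.8% with centres within 100 bp, and 39.4%, 35.7% and 58.4% in groups 1, 2 and 5 of input level. The short arm gave 96.9%, 78.1%, 41.2%, 37.1%, 20.5%, 27.6% and 51.5% in that order, so only at 8-fold was the long arm not higher. The share of DDX5 peaks with Fra-1, 64.1%, became 100% at 8-fold (8 peaks), 80.8% above the median −log10 q, 37.7% with centres within 100 bp and 12.8% with Fra-1 over IgG. The share of Fra-1 peaks with DDX5, 21.7%, became 16.8% at 8-fold, 19.5% without groups of 5 or more peaks, 13.2% with centres within 100 bp, and 9.05% and 33.5% for peaks called again over IgG and not. It was below the short arm each time. The input level of the stretch relative to the rest of the arm, 0.692, became 0.926 when peaks at the lower limit were left out, which removes the lowest levels by construction. The IgG level, 0.628, became 0.667 and 0.694 with bounds 1 Mb further in and out. The stretch, its bounds and the settings that use it were picked with these values in view. Its share called again, 74.2%, became 100% at 8-fold. Stricter overlap lowers a share by construction. For the other moves the cause was not tested. No paired analysis was possible because each antibody has 1 library. Total depths are unknown, and values that rest on the 8 DDX5 peaks of at least 8-fold or the 16 DDX5 peaks of the stretch have the wide counting intervals of such numbers.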
